A study of Mus musculus with 4 samples.

Results

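The genes of bile acid uptake, export and feedback in the ileum are described here, 8 genes chosen by name: Slc10a2, Fabp6, Slc51a, Slc51b, Nr1h4, Fgf15, Nr0b2 and Gpbar1. A gene was measured when the annotation of the array gave a probe set its symbol alone. This held for 7 of the 8, with 1 probe set each, or 7 of the 45101 probe sets of the array. Gpbar1 was not analysed here, because no probe set carries its symbol in the annotation used.

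Bile acids are made in the liver, secreted with bile into the duodenum and taken back at the end of the small intestine, the ileum, from where the portal blood returns them to the liver. Slc10a2, the apical sodium-dependent bile acid transporter, takes them up from the lumen, Fabp6, the ileal bile acid binding protein, binds them in the enterocyte, and Slc51a and Slc51b, the subunits of the organic solute transporter, pass them across the basolateral membrane. In the enterocyte bile acids also activate Nr1h4, the nuclear receptor FXR, which induces Fgf15, a hormone that lowers bile acid synthesis in the liver, and Nr0b2, the corepressor SHP, and also Fabp6, Slc51a and Slc51b. Gpbar1 encodes TGR5, a bile acid receptor of the cell membrane.

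Total RNA of the entire small intestine, with the mesentery trimmed off, was pooled within each of 4 groups of C57BL/6 mice, and each pool was hybridized to 1 array. CF control mice, homozygous for the null allele cftr-tm1Unc in all tissues, and WT control mice were not given lubiprostone. The mice of the groups WT + lubiprostone and CF + lubiprostone received 10 µg/kg lubiprostone, a bicyclic fatty acid used against constipation, by daily gavage for 2 weeks. All groups, the controls included, lived on the liquid diet Peptamen from weaning, which prevents obstruction in CF mice, and the WT mice were littermates of the CF mice. The design text gives 10, 7, 10 and 8 mice for these pools, in the order untreated WT, treated WT, untreated CF and treated CF, in which signals are also listed below. The methods of the study give fewer for WT control. The age and sex of the pooled mice were not given in the sources used here.

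Each value is a signal, an intensity in arbitrary units on a linear scale, and a ratio is a signal on 1 array over the signal of the same probe set on another. With 1 array per group there was no spread between mice or pools, and no test could be made. The order of the arrays given for each gene is therefore an order of 4 single values, and it is not known which neighbours in it differ beyond error. How many of all genes have both CF pools on the same side of both WT pools was not counted. As a measure of the spread within arrays, the probe sets of the same gene had a median SD of the log2 ratio of 0.24 for CF control over WT control, and of 0.20 and 0.26 for lubiprostone over control in WT and in CF mice. Signals of different probe sets depend on their probes and were not compared as levels.

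The median signal of the arrays lay between 109 and 124. Cftr, the gene that carries the null mutation, had signals of 2505, 2226, 620.2 and 715 from its brighter probe set, and where this probe set lies relative to the mutation was not examined. The pools differed in the brightest probe set of Xist, which is transcribed from the inactive X chromosome, with signals of 1036, 3683, 2509.8 and 4062, and the sex of the mice as a part of any result below was not tested. All 11 measured genes of the epithelium list, among them Vil1, Epcam and Cdh1, lay above the median on every array, with a summed signal of 167375 to 184708. Against WT control, 6 of these genes were higher in CF control and 5 lower. Cdx2 and Anpep were 1.90-fold and 1.73-fold lower, and 11.8% of all genes were lower by 1.5-fold or more. Of the hepatocyte list, Alb, Ahsg, Fgb, Cyp2e1 and Cyp7a1 lay below the median on every array. The other 3 genes, Ttr, Apoh and Serpina1c, did not, with summed signals of 764, 879, 440.3 and 550.2, and Ttr, a carrier of thyroid hormone, was 2.08-fold lower in CF control.

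The promoters are shown as background on the sequence before these genes. A link between their motifs and the ratios on the arrays was not tested. RefSeq starts were found for 7 of the 8 genes. The missing entry is Fgf15. The bases before the start are given 5′ to 3′ on the strand of the gene, build GRCm38.p6, 250 for each of 4 genes. Capitals in Fabp6 mark matches with at most 2 mismatches to AGGTCANTGACCT, an inverted repeat of the nuclear receptor hexamer AGGTCA with 1 base between the copies, the form that FXR binds with its partner RXR.

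Fabp6, chr11:43601563-43601812, minus strand: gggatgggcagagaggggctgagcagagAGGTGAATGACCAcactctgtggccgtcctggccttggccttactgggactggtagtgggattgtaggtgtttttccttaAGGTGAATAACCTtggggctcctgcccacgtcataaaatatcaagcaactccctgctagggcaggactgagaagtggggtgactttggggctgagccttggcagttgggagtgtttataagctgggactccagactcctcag

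Capitals in Slc51b mark the core of the same repeat, GGTNANTNACC, and those in Slc10a2 mark TTAATNATTAA, a palindrome at the core of HNF1 sites, and TTTATNG, a site of the CDX homeobox factors. Those in Nr0b2 mark TCAAGG, the core of sites for LRH-1, the product of Nr5a2.

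Slc51b, chr9:65422774-65423023, minus strand: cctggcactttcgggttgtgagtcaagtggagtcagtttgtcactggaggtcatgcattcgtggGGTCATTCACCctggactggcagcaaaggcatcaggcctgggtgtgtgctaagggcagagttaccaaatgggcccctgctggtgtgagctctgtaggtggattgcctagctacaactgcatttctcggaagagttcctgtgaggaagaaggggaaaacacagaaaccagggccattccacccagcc

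Slc10a2, chr8:5105288-5105537, minus strand: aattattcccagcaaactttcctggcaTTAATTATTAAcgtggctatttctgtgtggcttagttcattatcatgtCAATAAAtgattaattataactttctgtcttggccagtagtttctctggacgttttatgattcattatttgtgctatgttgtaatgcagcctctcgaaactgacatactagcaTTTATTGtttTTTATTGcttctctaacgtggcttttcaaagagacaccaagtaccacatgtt

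Nr0b2, chr4:133553126-133553375, plus strand: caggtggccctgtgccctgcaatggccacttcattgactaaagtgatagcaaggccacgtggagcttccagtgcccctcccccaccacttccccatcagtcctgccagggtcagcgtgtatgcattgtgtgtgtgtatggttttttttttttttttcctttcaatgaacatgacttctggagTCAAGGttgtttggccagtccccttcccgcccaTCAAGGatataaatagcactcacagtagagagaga

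Matches were counted on both strands, and the repeats and the HNF1 core read the same on both. Of the 32851 promoters of the table, cut to the same 250 bases, 0.959% hold AGGTCANTGACCT with at most 2 mismatches, and of the 7 promoters of these genes that of Fabp6 does, at 222 and at 142 bases before the start. The core GGTNANTNACC, which overlaps it, is held by 0.219% of all promoters, by Fabp6 within both matches and by Slc51b from 186 bases before the start. The hexamer AGGTCA alone is held by 14.0% of all promoters and by Slc51a, Slc51b and Nr1h4. TTAATNATTAA is held by 0.116% of all promoters and by Slc10a2. TTTATNG is held by 9.81% and, 3 times, by Slc10a2, and TCAAGG by 12.5% and, at 2 places, by Nr0b2. The letters were chosen after these promoters had been read. A match describes the sequence and does not show that a factor binds there.

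**Figure D1:**
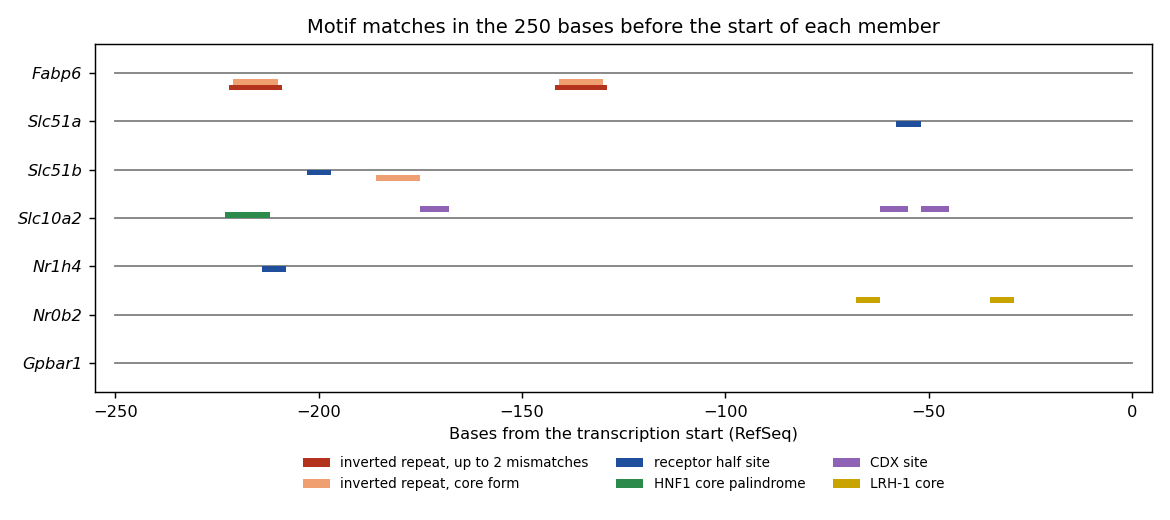
Positions of the motif matches in the 250 bases before the RefSeq start of 7 genes, with the distance from the start on the horizontal axis and 1 line per gene. Fabp6 carries 2 inverted repeats and Slc51b 1 in the core form, and Gpbar1 carries no match to the 6 motifs searched.

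The question of the first comparison is how the untreated CF intestine differs from the WT intestine. Bile acid uptake and binding genes had low signals in CF control. Of the 7 measured genes, 6 were lower than in WT control and 1 was higher, with a median log2 ratio of -0.97 against -0.02 over 11806 genes. Of those 11806 genes, 51.8% were lower. At 1.5-fold or more, 4 of 7 differed, where 19.7% of all genes did. All 4 were lower, Fabp6, Slc10a2, Slc51a and Nr0b2, where 11.8% of all genes were lower by as much. At 3-fold, the threshold of the study, Fabp6 alone differed, where 2.98% of all genes did. Of genes with 1 kept probe set, as these 7 have, 24.4% differed by 1.5-fold and 4.11% by 3-fold. In these bulk samples fewer ileal enterocytes and less RNA per cell cannot be told apart.

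Fabp6 had the largest difference of the group. Its signal was 20674 in untreated and 22885 in treated WT mice, against 5532 in untreated and 4150.3 in treated CF mice. Both WT pools lay above both CF pools. Fabp6 was 3.74-fold lower in CF control, a log2 ratio of -1.90, which was the 141st lowest of 11806 genes. It was nevertheless brighter than 97.0% of the probe sets of the CF control array, so it stayed far above the median of the array. Other lipid binding proteins of the enterocyte differed less. Fabp1, the fatty acid binding protein shared with liver, was 1.08-fold lower in CF control, Fabp2, the intestinal form, 1.52-fold lower, and Rbp2, which binds retinol, 1.16-fold lower. Dbi, which binds acyl-CoA, was 1.17-fold higher.

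Slc10a2 showed another order of the arrays. Its signal was 807 in untreated and 602 in treated WT mice, against 332 in untreated and 670.2 in treated CF mice. CF control was the lowest of the 4 arrays, 2.43-fold below WT control, and the treated CF pool lay between the WT pools.

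The subunits of the basolateral exporter, which work as a pair, differed from each other. Slc51a had signals of 6878 and 7507 in untreated and treated WT mice and of 3434 and 4046 in untreated and treated CF mice, so both CF pools lay below both WT pools. The ratio of Slc51a in CF control over WT control was 0.499. Its probe set is of the kind that Affymetrix marks as matching more than 1 transcript. Slc51b had signals of 3279.7 and 4398 in untreated and treated WT mice and of 2909 and 5194 in untreated and treated CF mice, with the treated pools above the untreated ones in both genotypes. Slc51b was 1.13-fold lower in CF control, a log2 ratio of -0.17, which is smaller than the median spread between probe sets of a gene and became 0.01 with all arrays scaled to 1 median.

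**Figure D2:**
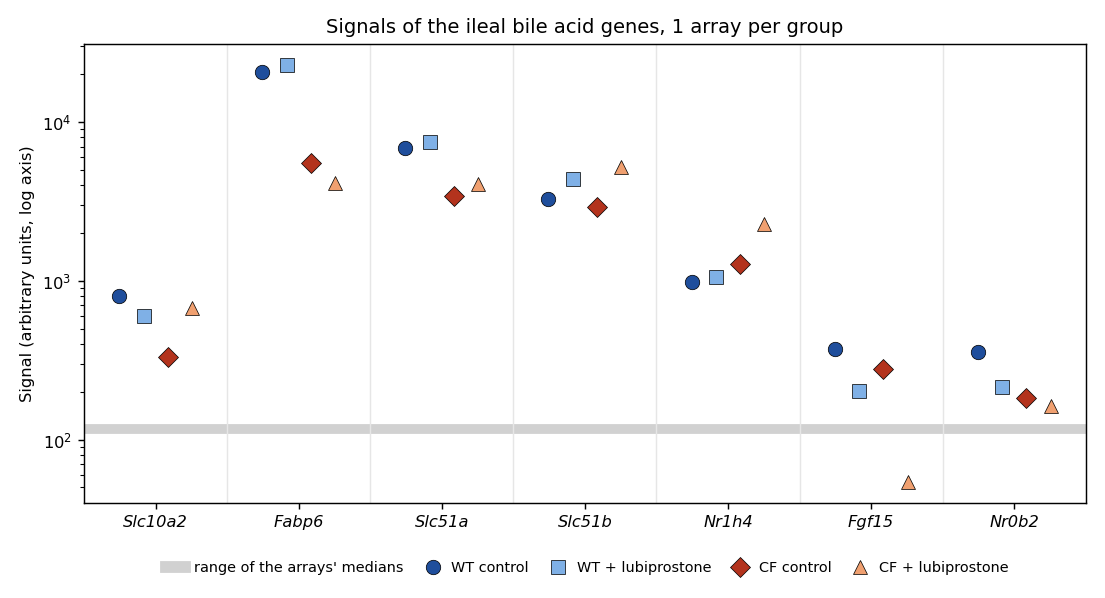
Signals of the 7 measured genes on a log axis, in arbitrary units, with 1 point for each pool and a grey band that spans the medians of the 4 arrays. Levels can be compared along a gene and not between genes. For Fabp6 the CF pools lie at 5532 and 4150.3 and the WT pools at 20674 and 22885, and for Fgf15 the CF + lubiprostone pool lies below the band, at 54.2.

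Nr1h4, the receptor itself, was not low in CF mice. Its signal was 984 in untreated and 1057 in treated WT mice, against 1269.8 in untreated and 2292 in treated CF mice, with both CF pools above both WT pools. The ratio of CF control over WT control was 1.29.

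The genes of the feedback signal, Nr0b2 and Fgf15, were lowest in the treated CF pool. Nr0b2 had signals of 355 and 215 in untreated and treated WT mice and of 182 and 164 in untreated and treated CF mice, and WT control was the highest of the 4. It was 1.96-fold lower in CF control. Fgf15 had signals of 369.8 and 202 in untreated and treated WT mice and of 278 and 54.2 in untreated and treated CF mice, with the treated CF pool below the median of its array. It was 1.33-fold lower in CF control. Of genes with a mean signal below the 75th percentile, as Fgf15 and Nr0b2 have, 25.1% differed by 1.5-fold or more in this comparison, and of brighter genes 13.3%.

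Most genes that mark the distal small intestine were lower in CF control, as Fabp6, Slc10a2 and Slc51a were. Of 7 measured genes of that list, 6 were lower in CF control, 2 of them by 3-fold or more, with a median log2 ratio of -0.83. Their summed signals were 34985, 31003, 24449.9 and 27202. Among all genes, 51.8% were lower in CF control, 11.8% were lower by 1.5-fold or more, and 2.98% differed by 3-fold in either direction. Cubn and Amn, which together form the ileal receptor for vitamin B12 bound to intrinsic factor, had signals of 6905 and 4025 in WT control and of 127 and 1276 in CF control. As 1 of the probe sets of Cubn lay below the median in CF control, Cubn was at least 52.9-fold lower. Nts, the gene of the enteroendocrine peptide neurotensin, had a ratio of 0.499 and Osr2, a transcription factor gene, was 1.77-fold lower. Pyy and Gcg, hormone genes of distal enteroendocrine cells, were 1.14-fold and 1.38-fold lower, and Clec2h was 1.08-fold higher. Of 12 genes of the proximal small intestine, 8 were lower, 3 of them by 1.5-fold or more, with a median of -0.19. Among these Lct, the gene of lactase, had signals of 24559 and 3276 in WT control and CF control, a log2 ratio of -2.91. In each of the other comparisons some of these bile acid genes had the direction of the distal list median and some the opposite one. With lubiprostone in WT mice the list median was -0.49, against 0.15 for Fabp6, 0.13 for Slc51a and -0.42 for Slc10a2. In CF mice it was -0.11, against -0.41, 0.24 and 1.01. Between the treated pools it was -0.82, against -2.46, -0.89 and 0.16. The part of the distal and proximal lists in the differences of the bile acid genes was not tested. Both lists were chosen with earlier results of these data known. The contractile genes of smooth muscle also differed, 6 of 7 being higher in CF control with a median of 0.50, and their part was not tested either.

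**Figure D3:**
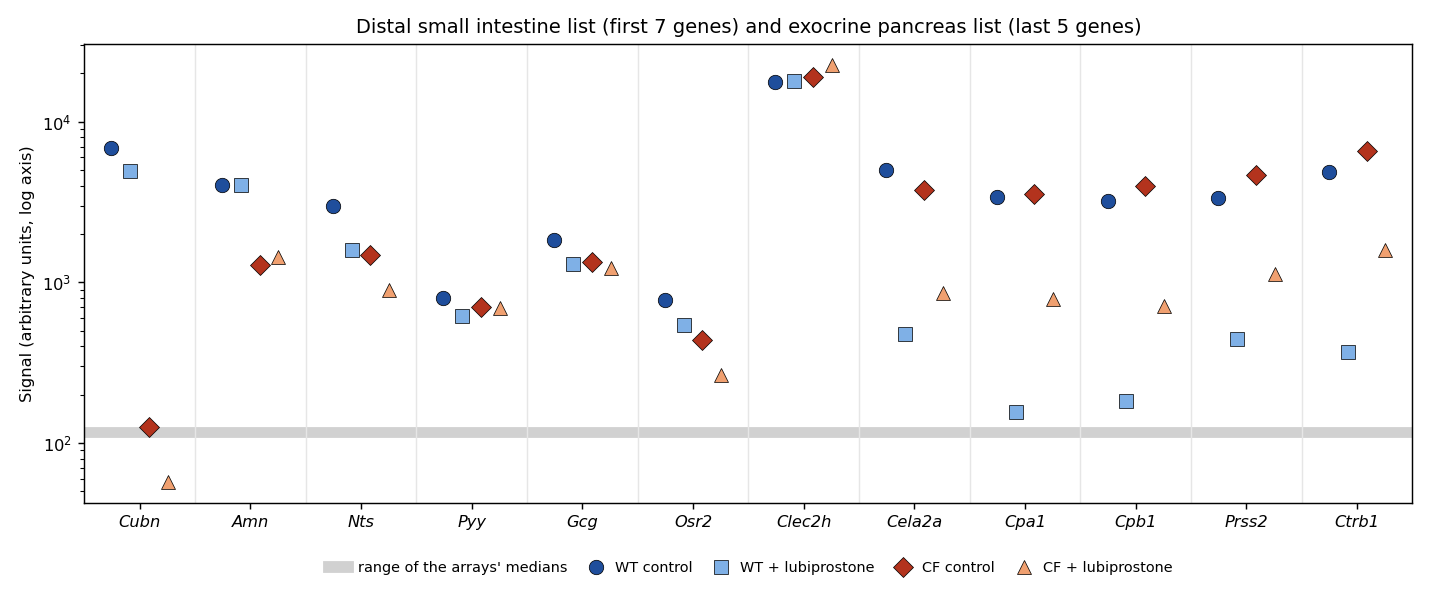
Signals of the distal small intestine list, the first 7 genes, and of the exocrine pancreas list, the last 5 genes, on a log axis in arbitrary units, with 1 point per pool and a grey band that spans the medians of the 4 arrays. Cubn lies at 6905 in WT control and at 127 in CF control, and the 5 pancreas genes are lower in both treated pools than in both untreated pools.

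The next comparison asks what lubiprostone did in WT mice. Fgf15 and Nr0b2 were lower, and the other 5 genes differed by less than 1.5-fold. Of the 7 genes, 4 were higher and 3 lower, with a median log2 ratio of 0.10 against 0.00 over 11691 genes. Of those 11691 genes, 50.5% were lower. At 1.5-fold or more, 2 of 7 differed, against 9.54% of all genes, and both were lower, against 5.07%. None differed by 3-fold, against 1.06% of all genes. Of genes with 1 kept probe set, 13.1% differed by 1.5-fold and 1.56% by 3-fold. Fgf15 was 1.83-fold lower in WT + lubiprostone than in WT control and Nr0b2 1.65-fold lower. Among genes with a mean signal below the 75th percentile, 15.9% differed by 1.5-fold or more. Slc51b had a ratio of 1.34, Fabp6 of 1.11, Slc51a of 1.09 and Nr1h4 of 1.07, while Slc10a2 was 1.34-fold lower.

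Genes of the exocrine pancreas moved with this comparison. All 5 measured genes of the exocrine pancreas, among them Cpa1 and Cpb1, which encode carboxypeptidases, were lower by 3-fold or more in WT + lubiprostone. Their summed signals were 19807, 1630.1, 22481 and 5065. No measured gene of that list lay below the median on any array, the lowest being Cpa1 at 157 in WT + lubiprostone. The distal list had 5 of 7 genes lower in the same comparison, with a median log2 ratio of -0.49, and Nts was 1.87-fold lower. The part of either list in the lower Nr0b2 and Fgf15 was not tested. Adipoq, the adipocyte gene adiponectin, had signals of 173, 15.3, 99.5 and 1.56, below the median on 3 of 4 arrays.

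A further comparison asks what lubiprostone did in CF mice. The uptake carrier, an exporter subunit and the receptor were higher in the treated CF pool, Fgf15 was much lower, and Fabp6 was not higher. Of the 7 genes, 4 were higher and 3 lower, with a median log2 ratio of 0.24 against 0.01 over 11795 genes. Of those 11795 genes, 48.5% were lower. At 1.5-fold or more, 4 of 7 differed, against 15.9% of all genes. Of these 3 were higher, Slc10a2, Nr1h4 and Slc51b, against 9.43% of all genes. At 3-fold, Fgf15 alone differed, against 1.68% of all genes. Of genes with 1 kept probe set, 20% differed by 1.5-fold and 2.61% by 3-fold.

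Slc10a2 was 2.02-fold higher in the treated than in the untreated CF pool, the 365th highest of 11795 ratios. Nr1h4 was 1.81-fold higher and Slc51b 1.79-fold higher, and both had their highest signal of the 4 arrays in this pool. Slc51a had a ratio of 1.18. Fabp6 was 1.33-fold lower, which left the treated CF pool lowest of all. Nr0b2 was 1.11-fold lower.

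Fgf15 had its lowest signal, 54.2, in CF + lubiprostone, below the median of that array at 119.6, while its other 3 signals lay between 202 and 369.8, above the medians of their arrays. Taken as measured it was 5.13-fold lower than in CF control, the 37th lowest of 11795 ratios. With the signal set to the median of its array, Fgf15 was at least 2.32-fold lower, so the 3-fold difference depends on how dim signals are read. The pancreas list was also lower in this comparison, all 5 genes by 3-fold or more with a median log2 ratio of -2.12. All 7 smooth muscle genes were lower, 3 by 1.5-fold or more, with a median of -0.40, and Actg2, an actin of smooth muscle, was 1.95-fold lower. In this comparison 15.9% of all genes differed by 1.5-fold or more in either direction. The distal list had 5 of 7 genes lower, with a median of -0.11. The part of these lists was not tested.

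The effect of genotype between the treated pools uses no array of the control comparison. Of the 7 genes, 4 differed by 1.5-fold or more between CF + lubiprostone and WT + lubiprostone, against 17.1% of all genes. Of these, 3 were lower, Fabp6, Slc51a and Fgf15, against 8.86% of 11792 genes, and Nr1h4 was 2.17-fold higher. At 3-fold, Fabp6 and Fgf15 differed, against 2.52% of all genes. Of genes with 1 kept probe set, 22.2% differed by 1.5-fold and 3.82% by 3-fold. Fabp6 was 5.51-fold lower, the 50th lowest ratio, and Slc51a 1.86-fold lower, so both were low in CF mice with and without lubiprostone. Fgf15 was 3.73-fold lower as measured, and at least 1.69-fold lower with its signal in CF + lubiprostone set to the median. Slc10a2 had a ratio of 1.11 and Slc51b of 1.18. The distal list was again lower in 5 of 7 genes, 4 of them by 1.5-fold or more, with a median log2 ratio of -0.82 and Cubn at least 41.1-fold lower. Among all genes, 49.7% were lower in this comparison. Lct was 10.2-fold lower. All 5 pancreas genes were higher by 1.5-fold or more, with a median of 1.96, and the part of these lists was not tested. The median of the 7 log2 ratios was -0.39, against 0.00 over all genes.

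**Figure D4:**
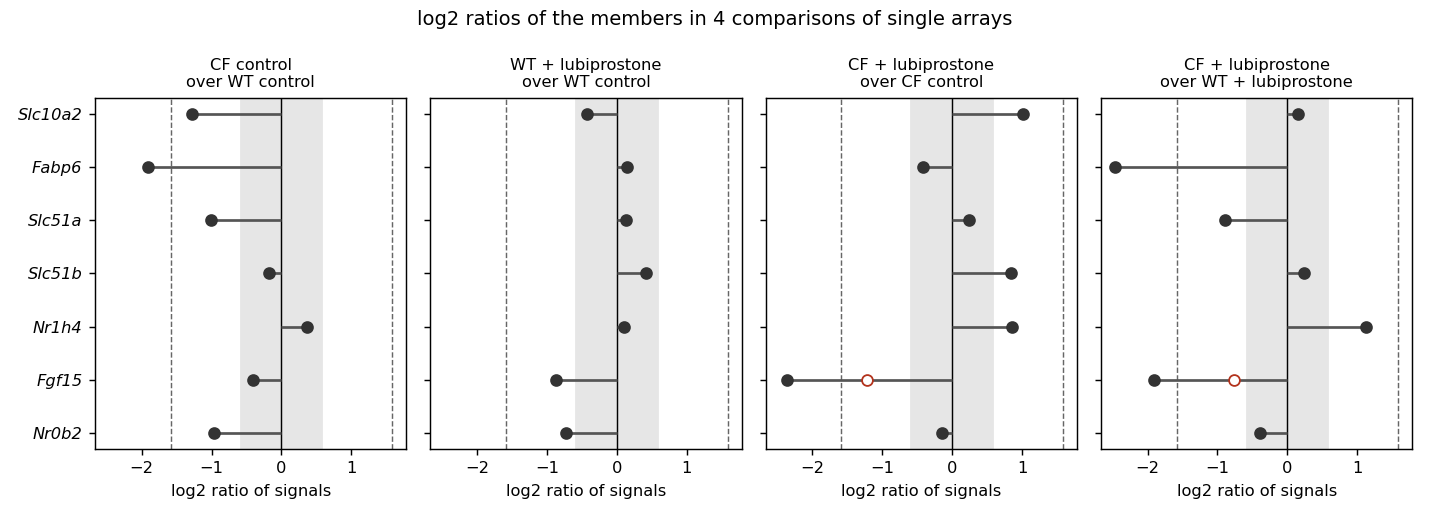
log2 ratios of signals of the 7 genes in each comparison, 1 array over another, with the grey band marking less than 1.5-fold and the dashed lines 3-fold. Open circles give Fgf15 with the dim signal set to the median of its array. Fabp6 lies at -1.90 and -2.46 in the comparisons of CF with WT, and Slc10a2 at -1.28 and 1.01 in the panels for CF control over WT control and for lubiprostone in CF mice.

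The genes with the most similar course were sought among 5390 other genes with a mean signal at or above the 75th percentile, by the root mean square distance between log2 signals over the 4 arrays, each gene centred on its own mean. The nearest to Fabp6 were Mme, the membrane peptidase neprilysin, at a distance of 0.13, and the cytochrome P450 genes Cyp2c65 at 0.13 and Cyp2c68 at 0.14. Mme had signals of 8029.5, 6987, 1934 and 1359. The nearest to Slc10a2 were Ezr at 0.07, which encodes the microvillus protein ezrin, Cryl1 at 0.13 and Cdr2 at 0.14. Those nearest to Slc51a were Slc46a3, Msra and Cyb5r3, at 0.04, 0.05 and 0.06. Those nearest to Slc51b were Eci2, an enzyme of fatty acid oxidation, Tnfsf13os and Agrn, at 0.03, 0.03 and 0.06. Those nearest to Nr1h4 were Rrm2, a ribonucleotide reductase subunit, Eif4ebp1 and Plscr1, at 0.04, 0.04 and 0.05. Each likeness rests on 4 values, and the genes share the same 4 arrays.

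Other genes of the pathway were taken from lists. Beside their counts, 51.8% of all genes were lower in CF control, and 48.5% were lower with lubiprostone in CF mice. Of 11 measured carriers of bile acids and sterols, 8 were lower in CF control and 3 higher, with a median log2 ratio of -0.27. Abcb1a, a multidrug exporter, was 3.87-fold lower, Abcg5 and Abcg8, which together export sterols to the lumen, 2.05-fold and 2.94-fold lower, and Abcg2, an apical exporter, 1.07-fold lower. With lubiprostone in CF mice 9 of 11 were higher, with a median of 0.27. The 1 gene of this list past 3-fold there was Slc10a1, the bile acid carrier of hepatocytes, with signals of 112 and 5.98 in CF control and CF + lubiprostone, where the medians were 109 and 119.6. No bound on the fold can be given, because the signal in CF control lies below the median of the treated array. It was named after its value was seen.

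Of 18 measured receptors and factors known to act on these genes or on bile acid sensing, 14 were lower in CF control and 4 higher, and the median log2 ratio was -0.45. Ppara, the fatty acid receptor PPAR-alpha, was 3.11-fold lower. Hnf4g, a nuclear receptor of the epithelium, was 1.92-fold lower, while its relative Hnf4a had a ratio of 1.25. Vdr, the vitamin D receptor, was 1.48-fold lower, and Cdx1 had a ratio of 1.08. With lubiprostone in CF mice 13 of 18 were higher, with a median of 0.12. Rxra, the partner of FXR, and Nr5a2, whose product binds the core marked in Nr0b2, were 1.13-fold and 1.46-fold lower in CF control. Gata4, a repressor of Slc10a2 in the proximal intestine, had a ratio of 1.09. These 3 genes were picked out for their role beside the rule for naming genes, and Cdx2 was named after its value was seen.

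Further genes reported as targets of FXR in the intestine lay on both sides of 0 in CF control. Of 10 such genes, 6 were lower and 4 higher in CF control, the median log2 ratio being -0.09, and with lubiprostone in CF mice 8 were higher, with a median of 0.19. Il18, a cytokine of the epithelium, had a ratio of 1.01, Ang, a ribonuclease gene, was 1.08-fold lower, Slc26a3, a chloride and bicarbonate exchanger, 1.29-fold lower and Abcc2, an exporter of conjugates, 1.60-fold lower. With lubiprostone in CF mice Slc26a3 was 1.55-fold higher and Abcc2 1.34-fold lower.

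Of 8 measured genes of bile acid synthesis and side chain breakdown, 7 were lower in CF control, 5 of them by 1.5-fold or more, with a median log2 ratio of -1.06. Of all genes, 11.8% were lower by 1.5-fold or more. Cyp27a1, the sterol 27-hydroxylase of mitochondria, had signals of 1687, 1480.3, 529.9 and 1186. CF control was the lowest, 3.18-fold below WT control, and the treated CF pool was 2.24-fold above the untreated one. Scp2 and Hsd17b4, peroxisomal genes that also serve fatty acids, were 2.11-fold and 2.30-fold lower in CF control, and Hsd3b7 was 1.07-fold lower. With lubiprostone in CF mice 7 of 8 were higher, with a median of 0.38. The largest ratio there was that of Acox2, a peroxisomal oxidase of side chains, 3.26-fold higher, named after its value was seen. The hepatic genes Cyp7a1, Cyp8b1, Baat and Slc27a5 lay below the median on every array.

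Of 8 measured genes of FGF15 and bile acid receptor signalling, 6 were lower in CF control, the median log2 ratio being -0.16, and 6 were higher with lubiprostone in CF mice with a median of 0.19. Its brightest members were Adcy6, an adenylyl cyclase, 1.13-fold lower in CF control, Gnas, the stimulatory G protein subunit, 1.11-fold lower, Fgfr2 and Fgfr3. For Fgfr2 and Fgfr3, receptors of fibroblast growth factors, 1 probe set lay below the median on both arrays, and they were 1.22-fold and 1.62-fold lower as measured. Klb, the coreceptor of FGF15, lay below the median on every array. Of the 8 other lipid binding genes, 6 were lower in CF control, with a median of -0.30, and 5 of 7 were higher with lubiprostone in CF mice, with a median of 0.12.

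**Figure D5:**
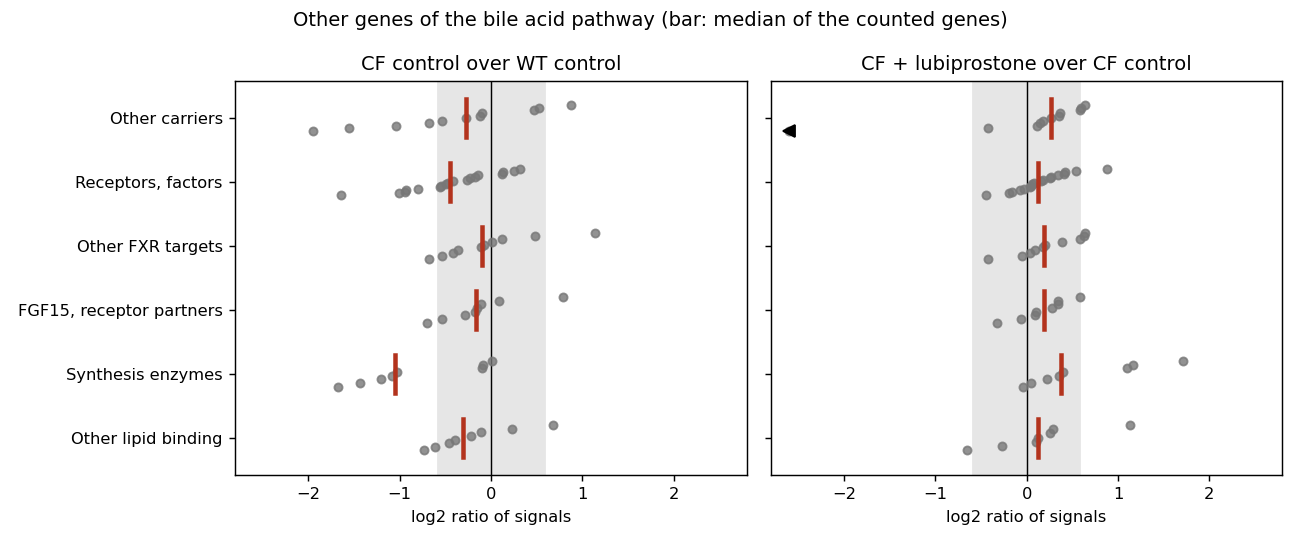
log2 ratios of signals of the other genes of the pathway, 1 point per gene, for CF control over WT control on the left and for lubiprostone in CF mice on the right, with the median of each list as a bar and the grey band marking less than 1.5-fold. The black triangle is Slc10a1, which lies beyond the axis at -4.23 from dim signals. The medians run from -1.06 to -0.09 on the left and from 0.12 to 0.38 on the right.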

How the data were processed

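The deposited table holds intensities, 1 signal per probe set of an Affymetrix mouse genome array, that the authors extracted with GCOS and scaled per array. MAS5 is also named in the submitters' processing notes, and versions are not given in the sources used here. Leaving out the top and bottom 2% of values, the mean was 500.0 on each array. RNA was pooled before labelling, so differences between mice cannot be seen.

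Of 45101 probe sets, 34958 carried 1 gene symbol, 932 several and 9211 were not named by the annotation. Symbols were updated through the gene identifier for 34754. A probe set was kept when it reached the median of its array on at least 1 array (21756 probe sets, 12259 genes), and log2 ratios were averaged over the probe sets of a gene. In a comparison, a gene was counted where 1 of its kept probe sets reached the median on either array. The calls were 3-fold, the study's threshold, and 1.5-fold, with no test. Where the lower signal was below the median, "at least" gives the fold with it set to the median. Lists were described by counts and medians, and signals of a gene with several probe sets are geometric means. The genes described and the lists were chosen with earlier results of these data known. Genes were named by rule: all members, of each pathway list the 4 brightest and the bright ones past 3-fold, and for each bright member the 3 nearest in course. Genes of the marker lists were named with their values known. The marker lists were distal and proximal intestine, epithelium, colon, hepatocyte, exocrine pancreas, macrophage, smooth muscle and adipocyte. For the colon, hepatocyte and adipocyte lists only 4, 3 and 1 genes were kept. The macrophage list had medians of -0.06 for CF control over WT control and 0.04 for lubiprostone in CF mice. Promoters came from RefSeq, GRCm38.p6. The steps were tested on simulated data. Python 3.11.15, numpy 2.4.6, pandas 2.3.3 and matplotlib 3.10.9 were used.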

Additional observations from a re-analysis of the deposited data

Results flagged for a closer look

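Slc10a2 had opposite directions with lubiprostone in the 2 genotypes, with log2 ratios of -0.42 in WT mice and 1.01 in CF mice, a difference of 1.44. Because each group is 1 array, this same difference is also that of CF over WT between treated and untreated mice, with log2 ratios of -1.28 untreated and 0.16 treated. Of 11227 genes counted in both lubiprostone comparisons, 2.43% had a difference at least as large. Fabp6 also had opposite directions, 0.15 in WT mice and -0.41 in CF mice, a difference of -0.56. For Slc51b the log2 ratio of CF over WT was -0.17 untreated and 0.24 treated, a difference of 0.41. Without a change of direction, the difference of the lubiprostone log2 ratios, CF minus WT, was -1.49 for Fgf15, 0.75 for Nr1h4, 0.57 for Nr0b2 and 0.11 for Slc51a. For Fgf15 2.20% of genes had one at least as large, and with the dim signal set to the median it was -0.35. Opposite signs of the lubiprostone ratios were found in 42.5% of the 11227 genes, and none of these differences was tested.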

How the results depend on the processing

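Tried as 8 alternatives were a filter at the 75th percentile or none, scaling of the arrays to the same median or by quantiles, ratios of mean linear signals, the brightest probe set of a gene, dim signals raised to the median, and 50 added to all signals. None of the 14 member ratios of at least 1.5-fold changed sign under them. Of all 216 recomputed member ratios, 1 did, Slc51b in CF control over WT control, at 0.01 with scaling to the same median. That scaling moved the median log2 ratio of all genes from -0.02 to 0.16 in this comparison, and from 0.01 to -0.12 in the CF lubiprostone comparison. As the members have 1 probe set each, averaging probe sets did not touch them. The filter at the 75th percentile leaves out Fgf15 and Nr0b2, so that 0 members remained at 1.5-fold in the WT lubiprostone comparison, 0 at 3-fold in the CF lubiprostone comparison and 1 at 3-fold between the treated pools, and the medians of the members became 0.84 and 0.16 in the latter comparisons. With dim signals raised to the median, 0 and 1 members passed 3-fold in these comparisons, and with 50 added 1 passed between the treated pools. Fgf15 then had log2 ratios of -1.22 and -1.65 in the CF lubiprostone comparison and of -0.76 and -1.28 between the treated pools. With no filter, 10.8% of 18194 genes differed by 3-fold in CF control over WT control, against 2.98% with it. No paired analysis was possible because each group has 1 array, and for the same reason no replicate could be left out. Spread between mice is unknown, and depth is limited by the number of arrays and, for Fgf15, by signal near the median.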
